A study of Mus musculus with 16 samples.

Results

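A set of 10 genes whose mRNA is commonly read as a mark of dividing cells, Mki67, Top2a, Ccnb1, Ccna2, Cdk1, Pcna, Mcm2, Mcm5, Rrm2 and Birc5, were followed in mouse quadriceps muscle. They were the rows of the count table with these gene symbols, 10 of 41388 genes, and each symbol matched 1 row. The study asked whether the drug tamoxifen changes the disease of mice that lack myotubularin, the lipid phosphatase encoded by Mtm1, whose loss causes myotubular myopathy, and it sequenced RNA from quadriceps of wild type and knockout mice with and without the drug. WT mice were wild type and Mtm1 KO mice were mtm1 -/-, from a line with exon 4 of Mtm1 deleted, and all were C57BL/6 mice taken at post natal day 36. WT + TAM and Mtm1 KO + TAM mice ate chow containing tamoxifen citrate at 40 mg/kg per day from day 21 of life, and the other mice did not receive the drug. The 14 libraries that the study analysed came from 3 untreated and 4 treated wild type mice and from 3 untreated and 4 treated knockouts, and 2 further deposited libraries, labelled WT replicate 1 and Mtm1 KO replicate 12, were set beside them. The question was how cell division in the growing muscle differs by genotype and drug.

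A cell that commits to division first loads the MCM helicase, which includes Mcm2 and Mcm5, onto its origins of replication, then copies its DNA with the sliding clamp Pcna and with deoxynucleotides made by ribonucleotide reductase, whose small subunit is Rrm2. The kinase Cdk1, switched on by the cyclins Ccna2 and Ccnb1, drives the cell into mitosis, where Top2a untangles the sister chromatids, Mki67 coats the chromosomes and Birc5 (survivin) guides the chromosomal passenger complex. Muscle fibers are post-mitotic, so in muscle such transcripts are usually credited to mononuclear cells, among them satellite cells, fibroadipogenic progenitors, endothelial cells and leukocytes. Many mitotic genes are known to share promoter elements named CHR (TTTGAA) and CCAAT, and many replication genes share sites for E2F factors.

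The data were of even depth. Library totals ran from 25702605 to 29847222 counts in the 14 libraries. Mtm1 itself had 282 to 459 counts in the 7 WT and WT + TAM libraries and 53 to 97 in the 7 libraries of both knockout groups, which matches their labels. The library labelled WT replicate 1 had 74 Mtm1 counts, within the range of the knockouts and against its label. Markers of myofibers summed to between 72954 and 139170 RPKM (reads per kilobase of gene, scaled to the library total), so the tissue was muscle as labelled. WT replicate 1 had 146530 RPKM of these, against 114510 to 139170 in the analysed WT libraries and 82772 to 93683 in those of Mtm1 KO. Its satellite cell and myoblast markers summed to 58.8 RPKM, against 62.4 to 64.8 and 143 to 179. Its cyclin-dependent kinase inhibitors summed to 71.3 RPKM, against 88.3 to 99.0 and 229 to 372. These sums lay on the side of WT and beyond its range, unlike its Mtm1 counts. Other sums of this library lay outside both groups. Its E2F, pocket protein, MuvB and FoxM1 regulators summed to 66.6 RPKM, against 117.5 to 125 in WT and 98.4 to 120 in Mtm1 KO. Its erythroid markers summed to 434 RPKM, against 89.8 to 206 and 98.0 to 373. The reason was not tested. All 10 proliferation genes passed the filter on low counts in every comparison. The share of a gene's 50-base transcript stretches that also occurred in transcripts of other genes was 23.4% for Ccnb1, whose copies include the pseudogene Ccnb1-ps, and 19.1% for Pcna, where the copy is Pcna-ps2. It was 4.95% for Rrm2 and at most 2.0% for the other 7 genes. Exons of Exosc9 on the other strand covered 12.5% of the exon bases of Ccna2, and whether counting used strand is not given, so the levels of Ccna2, Ccnb1 and Pcna are less certain than the others.

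Promoters are shown here for genes that turned out to vary together across the libraries (Cdk1, Top2a and Mki67) and for genes that did not follow them closely (Pcna, Mcm2 and Rrm2). Each line gives the 150 bases before the transcription start, 5′ to 3′ on the gene's strand, from the RefSeq promoter table on GRCm38.p6. Capitals mark matches, on either strand, to the CHR letters TTTGAA, to CCAAT, or to an E2F word, which was TTCGCGC or the related TTGGCGC or the related TTCCCGC.
Cdk1, chr10:69352913-69353062, minus strand: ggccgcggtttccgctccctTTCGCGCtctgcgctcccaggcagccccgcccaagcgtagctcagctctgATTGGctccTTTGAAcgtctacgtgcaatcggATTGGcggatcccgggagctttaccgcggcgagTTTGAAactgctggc
Top2a, chr11:99024190-99024339, minus strand: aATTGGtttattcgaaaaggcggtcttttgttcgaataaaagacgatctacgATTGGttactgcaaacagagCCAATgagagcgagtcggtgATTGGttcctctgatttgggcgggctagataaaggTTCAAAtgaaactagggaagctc
Mki67, chr7:135716380-135716529, minus strand: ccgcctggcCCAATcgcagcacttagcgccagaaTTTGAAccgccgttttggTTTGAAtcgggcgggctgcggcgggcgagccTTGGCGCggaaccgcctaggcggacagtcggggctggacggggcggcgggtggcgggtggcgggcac
Pcna, chr2:132253181-132253330, minus strand: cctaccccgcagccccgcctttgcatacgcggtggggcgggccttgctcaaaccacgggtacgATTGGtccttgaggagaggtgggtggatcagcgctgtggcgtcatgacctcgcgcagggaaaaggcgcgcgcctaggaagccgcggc
Mcm2, chr6:88898781-88898930, minus strand: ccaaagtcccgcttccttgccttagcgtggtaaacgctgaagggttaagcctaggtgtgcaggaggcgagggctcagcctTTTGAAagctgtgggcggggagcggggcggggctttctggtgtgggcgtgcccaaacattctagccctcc
Rrm2, chr12:24708104-24708253, plus strand: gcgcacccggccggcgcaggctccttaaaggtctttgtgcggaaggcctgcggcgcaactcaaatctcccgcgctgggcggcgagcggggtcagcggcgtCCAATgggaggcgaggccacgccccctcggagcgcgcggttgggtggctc

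In the full window of 250 bases before to 50 bases after the start, 9 of the 10 genes had an entry. The CHR letters were found in 4 of these 9 windows, those of Mki67, Top2a, Cdk1 and Mcm2, against 17.9% of all 32851 promoters in the table. CCAAT was found in 8 of 9 against 37.4%, and an E2F word in 4 of 9, those of Mki67, Ccnb1, Cdk1 and Mcm5, against 8.07%. Some words overlap each other, as in Ccnb1, where an E2F word runs into a CCAAT box. Top2a held 6 matches to CCAAT and Cdk1 held 2 to CHR, while Pcna held 1 CCAAT and neither of the other motifs. Mcm2, which stood apart from the mitotic genes in its levels, also held a CHR match, so the letters did not divide the genes by how they behaved. These matches describe the sequence, and no binding was measured.

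Expression is given first as the level of each gene in each library, in normalised counts, which are counts divided by the library size after TMM scaling (a factor that sets the bulk of genes equal between libraries) and multiplied by the average library size. Per gene length, Pcna was the highest of the set in all 4 groups, from 9.06 ± 1.78 RPKM (SD, n = 3) in WT to 15.3 ± 2.23 RPKM (SD, n = 4) in Mtm1 KO + TAM. Mcm2 followed in 3 of the groups with group means of 2.38 to 2.51 RPKM, and Rrm2 took that place in Mtm1 KO at 2.81 ± 0.857 RPKM (SD, n = 3). Ccnb1 was the lowest in every group, with means of 0.312 to 0.432 RPKM. RPKM was scaled by library total alone, so its values in knockouts also carry a shift that all genes shared, described with the comparisons.

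The licensing factor Mcm2 varied little. It stood at 209, 271 and 264 normalised counts in WT, at 197, 251, 283 and 303 in WT + TAM, at 218, 193 and 164 in Mtm1 KO, and at 212, 189, 274 and 179 in Mtm1 KO + TAM, in order of replicate number. All groups overlapped their neighbours in the order of their means, and the 2 knockout groups had the lower means. Mcm5, another subunit of the same hexamer, stood at 73.7, 103 and 96.5 in WT, at 56.8, 55.4, 119 and 151 in WT + TAM, at 151, 243 and 61.8 in Mtm1 KO, and at 163, 84.4, 148 and 118 in Mtm1 KO + TAM. Mtm1 KO replicates 10 and 11 thus lay 3.93-fold apart for Mcm5, although both are subunits of 1 ring and Mcm2 differed by only 1.33-fold among the Mtm1 KO libraries.

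Pcna, the sliding clamp that also serves in DNA repair, was the most even of the set. It stood at 731, 772 and 510 normalised counts in WT, at 754, 679, 803 and 861 in WT + TAM, at 848, 912 and 833 in Mtm1 KO, and at 1010, 769, 1032 and 916 in Mtm1 KO + TAM. The mean was lowest in WT, then came WT + TAM, then Mtm1 KO, and Mtm1 KO + TAM was highest. Neighbours in that order overlapped, while every Mtm1 KO library lay above every WT library. Rrm2 stood at 85.2, 90.6 and 65.8 in WT, at 24.2, 41.8, 126 and 122 in WT + TAM, at 147, 251 and 169 in Mtm1 KO, and at 134, 124, 122 and 125 in Mtm1 KO + TAM. Every Mtm1 KO library was above every library of the other 3 groups for Rrm2, and the Mtm1 KO + TAM libraries lay within 1.10-fold of each other. WT + TAM replicates 5 and 6 were the lowest of all 14 libraries for Rrm2, and WT + TAM replicates 7 and 8 reached the level of Mtm1 KO + TAM.

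For the cyclins and their kinase the mice of a group differed far more. Cdk1 stood at 127, 111 and 93.2 normalised counts in WT, at 39.9, 28.3, 121 and 128 in WT + TAM, at 86.5, 232 and 43.0 in Mtm1 KO, and at 126, 73.4, 163 and 112 in Mtm1 KO + TAM. The highest and the lowest value differed 1.36-fold in WT, 4.52-fold in WT + TAM, 5.40-fold in Mtm1 KO and 2.21-fold in Mtm1 KO + TAM. Ccna2, the cyclin of S and G2 phase, stood at 182, 201 and 116 in WT, at 77.4, 61.0, 223 and 149 in WT + TAM, at 94.8, 262 and 55.5 in Mtm1 KO, and at 195, 99.6, 172 and 106 in Mtm1 KO + TAM. Ccnb1, the mitotic cyclin, was read from few fragments, with 45.7, 85.8 and 39.5 normalised counts in WT, 7.26, 2.26, 95.8 and 82.8 in WT + TAM, 18.4, 63.5 and 13.4 in Mtm1 KO, and 22.5, 25.3, 69.5 and 41.5 in Mtm1 KO + TAM. The libraries of WT + TAM replicates 5 and 6 held 6 and 2 raw counts of Ccnb1, against 80 and 70 in replicates 7 and 8. In all 3 genes the same libraries were high or low, with Mtm1 KO replicate 10 at the top for Cdk1 and Ccna2 and WT + TAM replicate 6 at or near the bottom.

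The genes that act on chromosomes behaved alike. Top2a, the decatenating topoisomerase, stood at 189, 378 and 218 normalised counts in WT, at 73.8, 28.3, 275 and 364 in WT + TAM, at 169, 447 and 77.0 in Mtm1 KO, and at 248, 167, 271 and 220 in Mtm1 KO + TAM. Birc5 stood at 51.9, 70.3 and 54.8 in WT, at 32.7, 7.91, 95.8 and 81.6 in WT + TAM, at 47.9, 145 and 24.2 in Mtm1 KO, and at 89.0, 48.9, 97.9 and 63.7 in Mtm1 KO + TAM. Mki67, the antigen Ki-67, stood at 260, 291 and 228 in WT, at 79.8, 62.2, 352 and 317 in WT + TAM, at 166, 477 and 68.0 in Mtm1 KO, and at 241, 179, 365 and 208 in Mtm1 KO + TAM. The 3 WT libraries lay within 1.28-fold for Mki67, while WT + TAM spanned 5.66-fold and Mtm1 KO 7.01-fold. Top2a and Birc5 spanned 12.9-fold and 12.1-fold within WT + TAM. For Mki67 the mean was 260 ± 31.4 over the 3 WT mice and 203 ± 153 over the 4 WT + TAM mice (both ± SD). It was 237 ± 213 over the 3 Mtm1 KO mice and 248 ± 81.8 over the 4 treated knockouts (both ± SD), and no group stood apart from another. In bulk RNA, fewer dividing cells and less RNA of these genes per dividing cell cannot be told apart.

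**Figure D1:**
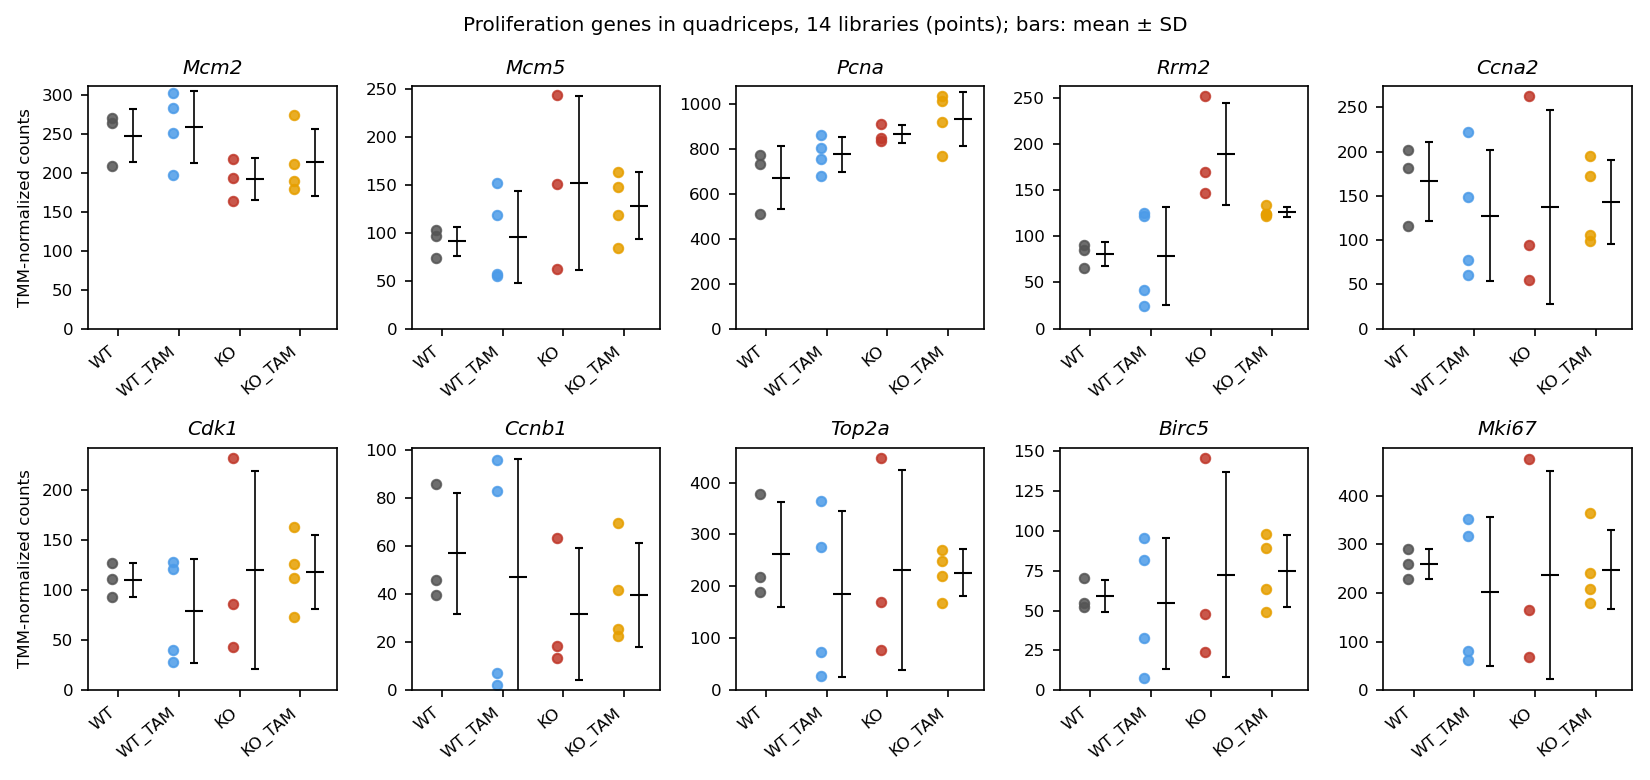
Normalised counts (y axis, from 0) of the 10 genes by group; each point is 1 library and the bars beside them are the mean ± SD of 3 or 4 libraries (KO stands for Mtm1 KO and _TAM for + TAM, and the bar of Ccnb1 in WT + TAM is cut at 0). Rrm2 in Mtm1 KO lies above all other groups and is tightest in Mtm1 KO + TAM (122 to 134), while Mki67 in WT + TAM falls into 62.2 and 79.8 against 317 and 352.

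The first comparison asked whether the untreated knockout muscle differed from wild type. Of the 10 genes, 0 passed edgeR's quasi-likelihood test for Mtm1 KO against WT at a Benjamini-Hochberg adjusted p of at most 0.01, the threshold of the study, against 3.6% of the 14740 genes tested. At an adjusted p of at most 0.05 there was 1, Rrm2, against 12.8%. At an unadjusted p of at most 0.05 there were 2 (Rrm2 and Pcna, both higher) against 30.1% of all genes, or 15.7% counting higher genes only, DESeq2 called 1, and limma on RPKM called 1 or 0 depending on the pseudocount. Rrm2 came closest, at 1.26 ± 0.26 on the log2 scale (SE), a fold of 2.39, with an adjusted p of 0.0178 and a 95% interval of 0.66 to 1.85. It passed the threshold with DESeq2 (adjusted p = 6.6e-04), with no filter on low counts (0.00402), with scaling by library size only (0.00607) and with limma on log2(RPKM + 0.1) (0.00857). It did not pass with the 16 libraries (1.12 on the log2 scale, adjusted p = 0.0486), nor when any of the 6 libraries was left out (0.0197 to 0.0595). Pcna was at 0.39 ± 0.17 (SE), with an adjusted p of 0.151 and an interval of 0.017 to 0.76. The groups of Mtm1 KO and WT did not overlap for these 2 genes, with all 3 Mtm1 KO libraries the higher, and 36.4% of all genes did not overlap either (17.4% higher). An exact two-sided permutation test of 3 against 3 gave p = 0.1 for both, the smallest it can give.

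Mki67, Top2a, Birc5 and Cdk1 differed between Mtm1 KO and WT by less than their own error. Log2 fold changes were -0.11 ± 0.55 (SE) for Mki67, -0.15 ± 0.54 for Top2a, 0.32 ± 0.57 for Birc5 and 0.15 ± 0.51 for Cdk1, with adjusted p of 0.745 to 0.920. Their 95% intervals still allowed large differences, from -1.34 to 1.13 for Mki67. Ccna2 and Ccnb1 stood at -0.25 ± 0.50 and -0.81 ± 0.59 (SE), with adjusted p of 0.780 and 0.397. Mcm5 was at 0.77 ± 0.43 and Mcm2 at -0.34 ± 0.19 (SE), with adjusted p of 0.265 and 0.258, so the 2 MCM subunits pointed in opposite directions without either passing. Among the alternatives Mcm2 ran from -0.46 to -0.022. The values of this comparison moved with single libraries. Without Mtm1 KO replicate 10 the log2 fold change was -1.12 for Mki67 (adjusted p = 0.103), -1.05 for Top2a, -1.11 for Ccna2 and -1.79 for Ccnb1 (0.0747). Without Mtm1 KO replicate 11 Mki67 was at 0.33, Top2a at 0.26 and Ccna2 at 0.12, without Mtm1 KO replicate 9 Mki67 was at 0.091 and Top2a at 0.028, and without WT replicate 3 Top2a was at 0.21. The median standard error of the 10 genes was 0.50, against 0.196 over all genes tested, and the median fold change was 0.024 on the log2 scale against 0.023.

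Tamoxifen in the knockout was the second comparison. For Mtm1 KO + TAM against Mtm1 KO, edgeR called 0 of the 10 genes and 0% of the 15062 genes tested, and DESeq2 and limma called 0 of the 10. At an unadjusted p of at most 0.05 there was 1, Rrm2, against 7.55% of all genes (4.48% lower). In edgeR, Rrm2 stood at -0.60 ± 0.21 on the log2 scale with the drug (SE), a fold of 0.660, with an adjusted p of 0.481. All 4 treated libraries (122 to 134 normalised counts) lay below all 3 untreated ones (147 to 251), which 7.69% of all genes also showed in 1 direction or the other and 3.7% in the lower direction, and the exact two-sided permutation test gave 0.0286, the smallest it can give with 3 against 4. With the 16 libraries this separation was lost, with 104 normalised counts of Rrm2 in Mtm1 KO replicate 12, and the log2 difference was -0.43 (adjusted p = 0.609). Without Mtm1 KO replicate 10 it was -0.34. Rrm2 in this comparison and in that against WT shares the Mtm1 KO libraries. The other 9 genes lay between -0.26 and 0.31 on the log2 scale, with adjusted p of 0.931 to 0.996, and the interval for Mki67 ran from -1.04 to 1.15.

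Tamoxifen in wild type muscle gave no call either. For WT + TAM against WT edgeR called 0 of 10 genes against 0.131% of the 14544 genes tested, 0 of 10 were under an unadjusted p of 0.05 against 10.7%, and DESeq2 and limma called 0. Mki67 stood at -0.36 ± 0.53 (SE), Top2a at -0.50 ± 0.66, Cdk1 at -0.48 ± 0.48 and Ccna2 at -0.39 ± 0.41, all with adjusted p of at least 0.772. For Ccnb1 and Birc5 the values were -0.28 ± 0.89 and -0.12 ± 0.62 (SE). Pcna was at 0.21 ± 0.16, Mcm2 at 0.059 ± 0.18, Mcm5 at 0.070 ± 0.37 and Rrm2 at -0.043 ± 0.51 (SE). None of the 10 separated the groups without overlap, which 11.4% of all genes did. The means in WT + TAM are those of 2 low and 2 high libraries, and the interval for Mki67 of -1.55 to 0.83 holds 0 and lower values alike.

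Between treated knockout and treated wild type muscle, edgeR called 0 of 10 genes against 6.72% of the 14563 genes tested, 0 of 10 had an unadjusted p of at most 0.05 against 32.3%, and DESeq2 and limma called 0. Rrm2 was at 0.69 ± 0.42 (SE, adjusted p = 0.286), Cdk1 at 0.58 ± 0.44, Birc5 at 0.46 ± 0.54 and Mcm5 at 0.43 ± 0.34 on the log2 scale. Pcna was at 0.27 ± 0.13 (SE) with an adjusted p of 0.165, and Mcm2 at -0.27 ± 0.19 with 0.338, so these 2 genes again pointed in opposite directions. With scaling by library size only, Mcm2 was at 0.014. Mki67 and Top2a were both at 0.29, Ccna2 at 0.17 and Ccnb1 at -0.24, each with an SE larger than its value. No gene of the set separated the 2 groups without overlap, against 22.5% of all genes. This comparison shares the WT + TAM libraries with the one before it.

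**Figure D2:**
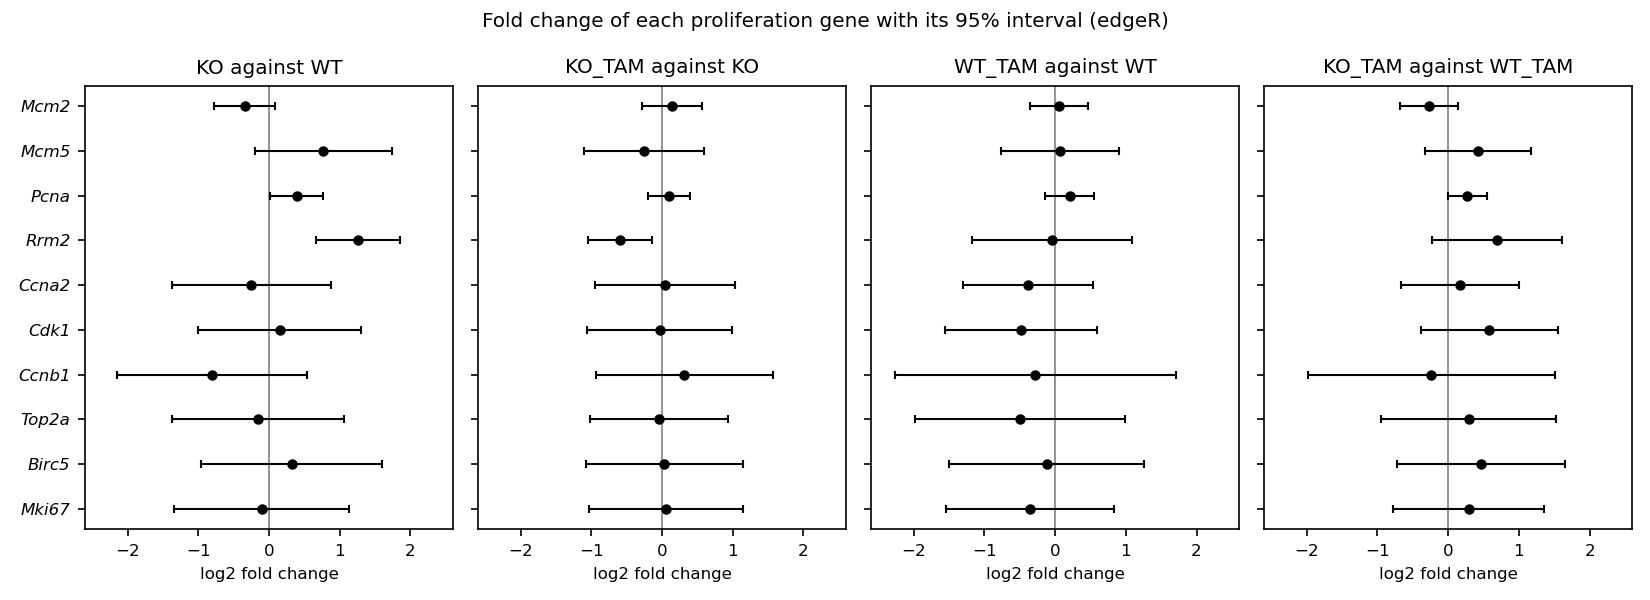
Log2 fold change (x axis) of each gene in the 4 pairwise comparisons, with 95% intervals from edgeR (KO stands for Mtm1 KO and _TAM for + TAM). The intervals of Rrm2 and Pcna lie above 0 in Mtm1 KO against WT and that of Rrm2 lies below 0 in Mtm1 KO + TAM against Mtm1 KO, before adjustment over all genes; the other intervals include 0.

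A further 3 contrasts from 1 fit of the 4 groups completed the design. In the first, which asked whether tamoxifen acted differently in Mtm1 KO than in WT, 0 of the 10 genes and 0% of the 15556 genes tested passed, and 0 of the 10 were under an unadjusted p of 0.05 against 4.27%. The differences ran from -0.55 ± 0.57 (SE) for Rrm2 to 0.60 ± 1.18 for Ccnb1, and every adjusted p was 0.9998. The second, the knockout effect averaged over both diets, called 0 of 10 against 19.4% of genes, with 2 of 10 (Rrm2 and Pcna) at an adjusted p of at most 0.05 against 33.3%, and 3 of 10 at an unadjusted p of at most 0.05 against 43.7% (21.3% higher and 22.3% lower). Those were Rrm2, at 0.96 ± 0.29 (SE, adjusted p = 0.0182), Pcna, at 0.32 ± 0.10 (0.0279), and Mcm2, at -0.32 ± 0.13 (0.0768). The value of Mcm2 depended on the processing and ran from -0.39 to -0.0062 among the alternatives. DESeq2 called 1, Rrm2, with an adjusted p of 0.00327, and Rrm2 also passed in edgeR without WT + TAM replicate 7 (0.00823) or 8 (0.0096). Library size scaling called both Rrm2 and Pcna, at 1.27 and 0.63, but under that scaling the median of all genes was itself 0.31 higher in the knockouts. The remaining 7 genes lay between -0.54 and 0.58 with adjusted p of at least 0.142, and Mki67 was at 0.081 ± 0.41 (SE). The third, tamoxifen averaged over genotype, called 0 of 10 against 0.591%, with 0 under an unadjusted p of 0.05 against 14.1%, and values from -0.31 ± 0.28 (SE) for Rrm2 to 0.16 ± 0.10 for Pcna.

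What set these genes apart from most others was the spread between mice of 1 group. The within-group SD of log2 CPM (counts scaled to the library size after TMM, on the log2 scale), pooled over the 4 groups, had a median of 0.80 over the 10 genes and of 0.27 over all 15556 genes. It was 1.42 for Ccnb1, 1.11 for Top2a, 1.04 for Birc5, 0.97 for Mki67, 0.84 for Cdk1 and 0.75 for Ccna2. Among genes of like level (within 0.5 of the gene's mean log2 CPM), these 6 lay above 97.3% to 99.3%. Rrm2 at 0.66 and Mcm5 at 0.64 lay above 94.1% and 94.0% of theirs. Mcm2 at 0.25 and Pcna at 0.20 were ordinary, above 48.0% and 55.4%. By group the median SD of the 10 genes was 0.24 in WT, 1.10 in WT + TAM, 1.11 in Mtm1 KO and 0.43 in Mtm1 KO + TAM, against 0.22, 0.27, 0.24 and 0.25 over all genes. Whether the spread differs between groups was not tested. Leaving out any 1 library moved the pooled median over the 10 genes to between 0.69 and 0.84, and the 16 libraries gave 0.80.

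**Figure D3:**
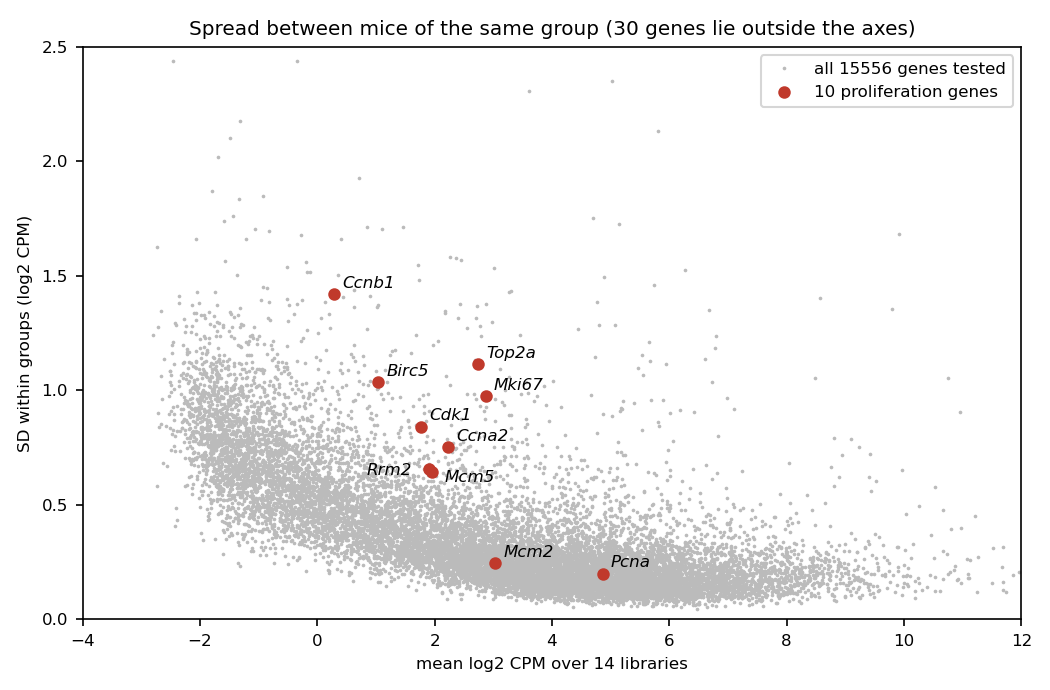
SD within groups (y axis) against the mean level (x axis) on the log2 CPM scale over 14 libraries; grey points are all genes tested and red points the 10 proliferation genes. Ccnb1 (1.42), Top2a (1.11), Birc5 (1.04) and Mki67 (0.97) lie above the bulk of genes of their level, and Mcm2 (0.25) and Pcna (0.20) lie inside it.

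The spread was shared between genes. Across the 14 libraries Mki67 rose and fell with Cdk1 (Pearson's r = 0.970, Spearman's rho = 0.921), Top2a (0.944 and 0.916), Ccna2 (0.933 and 0.908), Birc5 (0.925 and 0.947) and Ccnb1 (0.916 and 0.890). Permutation p for these 5 Pearson values was 1e-05 or 2e-05, where 1e-05 is the smallest that 100000 permutations can give, and at most 6e-05 after adjustment over the 15 relations computed. With each gene centred on its group means, r was 0.984 for Cdk1, 0.943 for Top2a and 0.911 to 0.937 for the other 3, so the relation held within groups. Mcm5 followed at 0.808 and 0.706 (permutation p = 3.7e-04 and 0.00672, adjusted 9.25e-04 and 0.0168) and at 0.921 within groups. Leaving out the 2 libraries farthest from the median of Mki67, WT + TAM replicate 6 and Mtm1 KO replicate 11, gave an r of 0.701 for Mcm5 and 0.877 to 0.949 for the 5 genes named first.

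The replication genes Rrm2, Mcm2 and Pcna followed Mki67 less closely. Their Pearson's r was 0.551 for Rrm2, 0.414 for Mcm2 and 0.306 for Pcna, with rho of 0.226, 0.481 and 0.455, and permutation p adjusted over the 15 relations of 0.067 for the Pearson value of Rrm2 and 0.174 or more for the others. Centred on the group means, r was 0.776, 0.603 and 0.515. In Mtm1 KO replicate 11, which held 68.0 normalised counts of Mki67, Rrm2 stood at 169, above all libraries but Mtm1 KO replicate 10, while Mki67 was above only WT + TAM replicate 6. Depth did not move with these levels, since r between Mki67 and the library total was 0.037, and between Mki67 and the TMM factor 0.12.

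**Figure D4:**
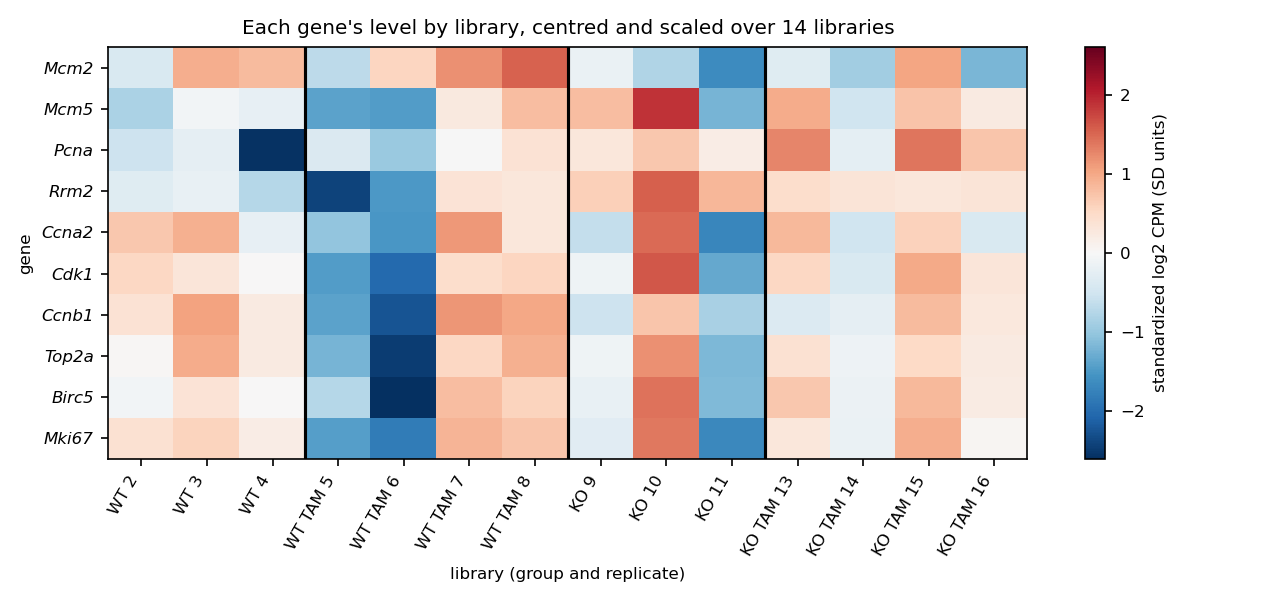
Level of each gene (rows) in each of the 14 libraries (columns, by group), as log2 CPM centred and scaled over the libraries (colour, SD units). WT + TAM replicates 5 and 6 and Mtm1 KO replicate 11 are low in the mitotic rows and Mtm1 KO replicate 10 is high, while Pcna, Mcm2 and Rrm2 keep their own pattern.

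Among 15556 genes, those most like the mean standardized level of the 10 over the 14 libraries were Cenpe (r = 0.970), a kinetochore motor, Ccnb2 (0.966), a mitotic cyclin, Nek2 (0.955), a centrosomal kinase, 2810417H13Rik (0.952) and Nuf2 (0.944), part of the outer kinetochore. Cenpe stood at 0.029 RPKM in WT + TAM replicate 6 and at 0.679 in Mtm1 KO replicate 10, and Ccnb2 at 0.290 and 3.04. Of the cell cycle lists, the mean standardized level of 28 mitosis and cytokinesis genes followed that of the 10 with an r of 0.964, 15 cyclins and cyclin-dependent kinases with 0.864, 16 replication fork and nucleotide genes with 0.723, 13 licensing genes with 0.710 and 18 E2F, pocket protein, MuvB and FoxM1 regulators with 0.560. For 7 cyclin-dependent kinase inhibitors it was 0.055. Lists of cell type markers differed among themselves. Fibroblast and fibroadipogenic progenitor markers reached 0.736 and macrophage and leukocyte markers 0.630, values like those of the replication and E2F lists. Erythroid markers stood at 0.418, endothelial markers at 0.185, satellite cell and myoblast markers at 0.084 and myofiber markers at -0.249. These are correlations across libraries given as descriptions, and the libraries share their normalisation.

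Markers of other cells were read beside these levels. The summed RPKM of 10 fibroblast and fibroadipogenic progenitor markers, of which Dcn is the highest, was 1093 to 1154 in WT, 670 to 1017 in WT + TAM, 1253 to 1853 in Mtm1 KO and 1215 to 1337 in Mtm1 KO + TAM, with no marker at 0 counts in any library. WT + TAM replicates 5 and 6 had the lowest sums, 820 and 670, and Mtm1 KO replicate 10 the highest, 1853. Against Mki67 its r was 0.595 (permutation p = 0.024, adjusted 0.0514) and its rho 0.319 (0.267, adjusted 0.401) over all 14 libraries, and r was 0.910 with both centred on their group means. For the other lists r was 0.553 for erythroid markers (adjusted p = 0.067), which fell to 0.256 without the 2 farthest libraries, 0.375 for macrophage and leukocyte markers, 0.328 for endothelial markers, 0.137 for satellite cell and myoblast markers and -0.115 for myofiber markers, none past an adjusted p of 0.05. Centred on the group means, r for these lists was 0.605, 0.538, 0.447, 0.41 and -0.160 in that order. The satellite cell and myoblast sum, led by Myog, was 62.4 to 64.8 in WT, 52.9 to 70.9 in WT + TAM, 143 to 179 in Mtm1 KO and 109 to 146 in Mtm1 KO + TAM (RPKM, scaled by library total). That sum is 39.9% Myog, and the list was divided. In the knockout effect averaged over both diets, where edgeR called 19.4% of all genes, it called 2 of the list's 10 genes higher (Myog and Itga7). It called 2 lower, the satellite cell factor Pax7 (-1.33 ± 0.22, SE, adjusted p = 3.25e-04) and Calcr (-3.50 ± 0.47, 6.18e-05). The macrophage and leukocyte sum, led by Lyz2, was 71.8 to 85.7, 37.1 to 88.3, 124 to 162 and 112 to 216 in the same order of groups. The endothelial sum, led by Cdh5, was 81.5 to 129, 67.2 to 85.9, 96.2 to 131 and 70.5 to 93.8, and the erythroid sum, led by Hbb-bs, was 89.8 to 206, 74.6 to 174, 98.0 to 373 and 114 to 232. Up to 2 erythroid markers, 2 macrophage and leukocyte markers and 1 satellite cell marker were at 0 counts in a library of the 14, and 0 endothelial and 0 myofiber markers were. The part of any of these cells in the levels of the 10 genes was not tested.

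**Figure D5:**
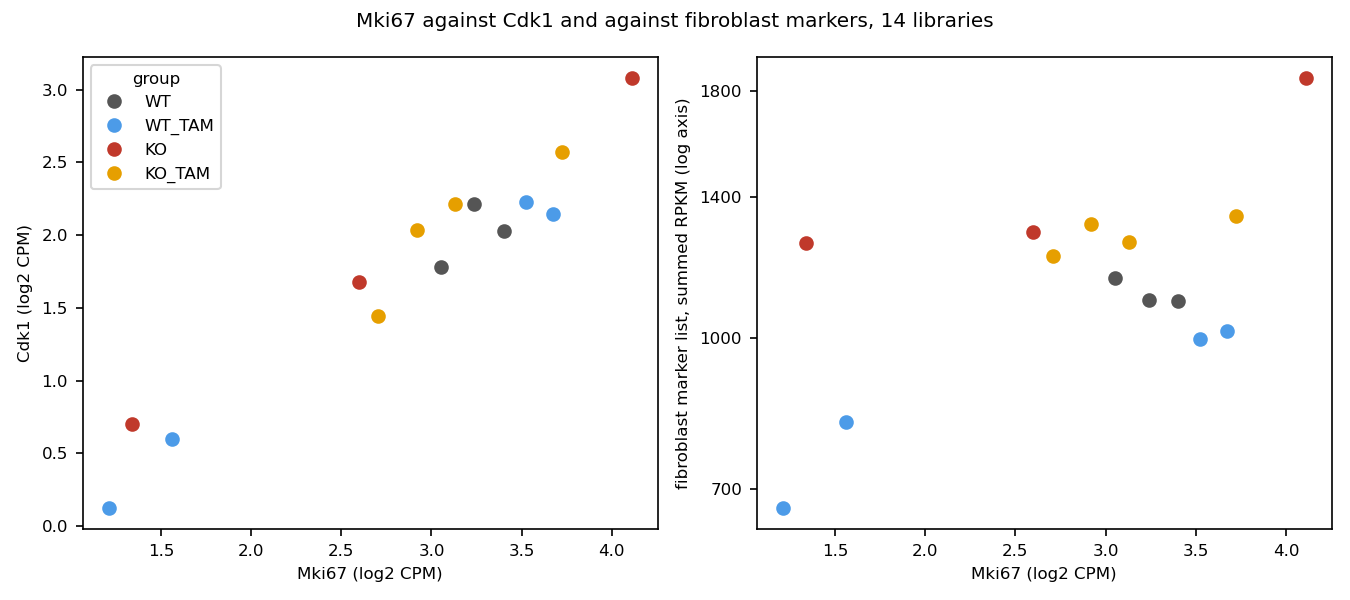
Mki67 (x axis, log2 CPM) against Cdk1 (left, log2 CPM) and against the summed RPKM of 10 fibroblast markers (right, log axis) in the 14 libraries, coloured by group (KO stands for Mtm1 KO). Mki67 and Cdk1 lie along 1 line for all groups (r = 0.970), while the fibroblast sum is lower in WT + TAM (670 to 1017) than in Mtm1 KO (1253 to 1853). The fibroblast sum follows the order of Mki67 within WT + TAM and Mtm1 KO, which it does not in WT or Mtm1 KO + TAM.

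The rest of the cell cycle machinery was read from lists of licensing, replication, cyclin, mitotic, inhibitor and E2F genes. For Mtm1 KO against WT, edgeR called 0 of 12 licensing genes, 0 of 16 replication fork and nucleotide genes and 0 of 15 cyclins and kinases, with 2, 6 and 7 under an unadjusted p of 0.05, and DESeq2 called 0, 0 and 1 (Cdk6). Over all genes tested, 3.6% were called by edgeR and 30.1% were under that unadjusted p. Among the lowest in p were Mcm6 (0.88 ± 0.33 on the log2 scale, SE) and Mcm4 (0.54 ± 0.22), Rfc3 (0.91 ± 0.25), and Cdk6 (2.65 ± 0.55) and Cks1b (0.83 ± 0.25), with adjusted p of 0.0177 to 0.138. Of 28 mitosis genes 1 was called, the spindle kinase Aurka, lower by -1.29 ± 0.23 (SE, adjusted p = 0.00966), and 23 of 28 had a negative value, with a median of -0.27 against 0.023 over all genes. Aurka was not past the threshold when any 1 of the 6 libraries was left out. The mitosis list moved with the 10 genes (r = 0.993 with both centred on their group means), so its 28 values are not separate observations. In this comparison Mki67 and Top2a changed sign without Mtm1 KO replicate 11 (0.33 and 0.26) and with the 16 libraries (0.28 and 0.18). Cdkn1a, the inhibitor p21, was the 1 inhibitor of 6 called by edgeR (DESeq2 also called Cdkn1b), higher by 3.66 ± 0.28 (SE, adjusted p = 2.74e-04) in every alternative run. It ran from 11.1 to 15.7 RPKM in WT and from 157 to 293 in Mtm1 KO, far apart, while Mki67 overlapped between the same libraries. Of 18 E2F and pocket protein genes edgeR called 2 (DESeq2 also called Lin37 and Tfdp1), the repressor E2f6, lower by -0.77 ± 0.13 (SE, adjusted p = 0.00764), and the retinoblastoma gene Rb1, higher by 1.14 ± 0.21 (0.00999), and neither was past the threshold in 6 (E2f6) or 5 (Rb1, all but that without Mtm1 KO replicate 10) of the 6 fits with 1 library left out.

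In Mtm1 KO + TAM against Mtm1 KO, edgeR called 0 genes of these 6 lists, with 1 licensing gene (Mcm6, 0.68 ± 0.26, SE), 2 mitosis genes (Ube2c, 1.31 ± 0.31, and Spag5, -0.53 ± 0.22) and 1 inhibitor (Cdkn2a, -1.48 ± 0.59) under an unadjusted p of 0.05, and DESeq2 called 1, Ube2c. That was 4 of 97 listed genes under the unadjusted p, against 7.55% of all genes tested, of which edgeR called 0%. The value of Ube2c is uncertain, since its exons overlap those of a muscle gene on the other strand, as described below. The lowest p in the other lists belonged to Rfc4, Tyms, Ccnd2, Ccnd3, Rbl2 and E2f5, with log2 values of 0.38, 0.41, -0.39, -0.23, 0.27 and -0.36, and to Gins2 and Cdkn2c beside the genes named, with 0.47 and 0.26. In WT + TAM against WT, 0 genes of the lists were called, 7 were under an unadjusted p of 0.05 and DESeq2 called 2 (Spag5 and Cdkn1a), and 27 of 28 mitosis genes had a negative value, with a median of -0.46 against -0.0036 over all genes. Over all genes tested, 0.131% were called by edgeR and 10.7% were under that unadjusted p. The mitosis list followed the 10 genes closely (r = 0.964), for which WT + TAM holds 2 low libraries (replicates 5 and 6) and 2 high ones (replicates 7 and 8). The spindle protein Spag5 (-1.80 ± 0.32, SE, adjusted p = 0.0481) and Aurka (-0.82 ± 0.32, 0.400) led them. Others with the lowest p were Mcm7 (0.22) and Gins1 (0.45), Tk1 (-0.51) and Fen1 (0.39), Ccnf (-1.09) and Wee1 (0.62), Cdkn1a (0.84) and Cdkn1c (-0.41), and E2f2 (-0.82) and Lin37 (0.41). Spag5 was the 1 listed gene of 97 called for tamoxifen averaged over genotype, against 0.591% of all genes. It was lower by -1.16 ± 0.20 (SE, adjusted p = 0.0076), and it was past the threshold in 7 of 21 alternatives, not with the 16 libraries, limma or 11 of the fits with 1 library left out.

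In Mtm1 KO + TAM against WT + TAM, 23 of 28 mitosis genes had a positive value, with a median of 0.41 against -0.014, and the WT + TAM libraries serve in both comparisons. These 28 genes moved together across the libraries, so their signs are not separate observations. Called by edgeR, at a background of 6.72%, were Cdkn1a, higher by 2.63 ± 0.25 (SE, adjusted p = 1.62e-04), E2f8, higher by 1.69 ± 0.35 (0.0084), E2f6, lower by -0.70 ± 0.13 (0.00532), and Ube2c, lower by -1.24 ± 0.17 (0.00118). Ube2c, a ubiquitin-conjugating enzyme of mitotic exit, ran from 59.8 to 621 RPKM, more than any other gene of its list. Its exons share 592 bases, 22.8% of the total, with Tnnc2 on the other strand, a troponin gene of fast muscle fibers, so its value is uncertain. DESeq2 called these 4 and also Rb1, Rbl2 and Tfdp1. E2f8 lost its call in 7 and E2f6 in 6 of the 8 fits with 1 library left out. None of 13 licensing genes, 16 replication genes and 15 cyclins and kinases were called by edgeR, with 3, 4 and 3 under an unadjusted p of 0.05 (32.3% of all genes), and DESeq2 called 1 in each (Mcm6, Rrm1 and Cdk4), with low p for Mcm6 (1.15 ± 0.31, SE), Mcm4 (0.46 ± 0.15), Rrm1 (-0.53 ± 0.13), Cdk4 (0.50 ± 0.14) and Cdk6 (1.59 ± 0.52), with adjusted p of 0.0161 to 0.0606.

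More of the machinery passed in the knockout effect averaged over both diets, where the background was 19.4%. Of 13 licensing genes 2 were called, the helicase subunits Mcm6 (higher by 1.01 ± 0.25, SE, adjusted p = 0.0070) and Mcm4 (0.49 ± 0.13, 0.00922), while Mcm2 and Mcm5 were not. Mcm6 and Mcm4 were past the threshold in 12 and 9 of 21 alternatives, and lost it in fits with 1 library left out. Mcm6 ran from 1.03 to 3.19 RPKM in the knockouts and from 0.578 to 1.67 in WT and WT + TAM. Among the replication fork and nucleotide genes Rrm1 was called, lower (-0.51 ± 0.09, SE, adjusted p = 5.39e-04), but it did not pass with library size scaling or limma. Rrm1 is the large subunit of ribonucleotide reductase, and it fell while the small subunit Rrm2 stood at 0.96 without passing. Of 15 cyclins and kinases 3 were called, all G1 genes and all higher, Cdk6 (2.11 ± 0.40, SE, adjusted p = 0.00104), Cdk4 (0.47 ± 0.10, 0.00231) and Ccne1 (1.10 ± 0.27, 0.00555), with Cdk4 lost with the 16 libraries and Ccne1 in 5 fits with 1 library left out. Of 28 mitosis genes edgeR called 1, Ube2c, and DESeq2 called 3 (Ube2c, Aurka and Smc2), and the median of the list was 0.0052 on the log2 scale, equal to that of all genes (0.0052). Of 7 inhibitors Cdkn1a was higher by 3.13 ± 0.21 (SE, adjusted p = 1.39e-07) and Cdkn1b, the inhibitor p27, lower by -0.51 ± 0.09 (5.54e-04), the latter not with library size scaling, limma or the 16 libraries. Of 18 E2F and pocket protein genes 7 were called, 3 higher and 4 lower, led by E2f6 (-0.75 ± 0.10, SE, adjusted p = 4.0e-05), Rbl2 (-0.61 ± 0.11, 5.51e-04), Tfdp1 (-0.83 ± 0.15, 7.18e-04) and Lin37 (0.73 ± 0.13, 7.22e-04), of which Rbl2, Tfdp1 and Lin37 did not pass with the 16 libraries, and Rbl2 and Tfdp1 not with library size scaling or limma either. For the difference between the tamoxifen effects, edgeR and DESeq2 called 0 listed genes. Of 97 tested, 4 were under an unadjusted p of 0.05, against 4.27% of all genes, and the lowest p belonged to Spag5 (1.29 ± 0.41, SE, adjusted p = 0.925).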

How the data were processed

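Total RNA libraries from quadriceps (Illumina TruSeq) were analysed from 2 deposited tables of 41388 genes. Alignment by the authors used STAR on GRCm38 and counting per gene used HTSeq, and the deposited counts are whole numbers with no scaling. The deposited RPKM values were scaled by the authors to gene length and library total. The submitters' processing notes name bcl2fastq 2.17, STAR 2.5.0c and Cufflinks 2.2.1; the HTSeq version and strand setting were not given.

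Counts were tested in R 4.3.3 with edgeR 4.0.16 (TMM, filterByExpr with a minimum count of 10 and total of 15, quasi-likelihood test, Benjamini-Hochberg adjustment over all genes, threshold 0.01 as in the study), with the 2 groups compared in the fit. The 3 contrasts of the 4-group fit, which go beyond the pairwise ones and are not in the study's methods, used all 14 libraries. Standard errors are those of the model. DESeq2 1.42.0 and limma 3.58.1 on log2(RPKM + 0.1) and log2(RPKM + 1) were alternatives, and log2 fold changes on those 2 scales understate changes of low genes. Permutations used scipy 1.17.1 and 100000 draws for relations between libraries. The edgeR procedure was tested on simulated counts.

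The libraries labelled WT replicate 1 and Mtm1 KO replicate 12 were left out by the study without a stated reason and were added in an alternative. All 32 count and RPKM columns were mapped to samples, and 0 pairs of libraries had identical counts. The p-values and intervals cover the spread between these mice. Named genes were the 10 genes in every comparison, of each other cell cycle list the called genes (at most 4 per list and comparison, or the 2 with the lowest p), the 5 genes most like the set, the highest marker of each cell type list, and Mtm1. The 10 genes and the lists were chosen with earlier results of these data known. Gene lists, Emr1 standing for Adgre1 and Ahsp not analysed here, were described by counts and medians. Genes were placed with GENCODE vM21, and promoters of 9 of the 10 genes came from the RefSeq table on GRCm38.p6. Some results of the gene lists are not reported here.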

Additional observations from a re-analysis of the deposited data

Results flagged for a closer look

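The library labelled Mtm1 KO replicate 12, which the comparisons of the 14 libraries do not use, held 7 of the 10 genes above every WT library when the 16 libraries were scaled together. Its normalised counts were 407 for Mki67 (highest WT library 285), 412 for Top2a (370), 232 for Ccna2 (197), 266 for Cdk1 (124), 237 for Mcm5 (100.4), 104 for Rrm2 (88.7) and 230 for Birc5 (68.9). None of the 14 libraries was above it for Birc5 or Cdk1. The library labelled WT replicate 1, with Mtm1 at the level of the knockouts, held 0 of the 10 above the other WT libraries. In the 20 sets of 4 libraries examined (10 genes in WT + TAM and in Mtm1 KO + TAM), 0 had a library far enough from the others to be flagged, where chance flags about 1 in 20. The low pair and the high pair of WT + TAM libraries were not marked by this test, which looks for 1 library apart from the rest.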

How the results depend on the processing

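No paired analysis was possible because the labels number the libraries 1 to 16 and no number is shared between groups. Groups held 3 or 4 mice, and standard errors of the mitotic genes were near 0.5 on the log2 scale. For Mki67 in Mtm1 KO against WT the 95% interval ran from -1.34 to 1.13, so differences near 1 could also be missed. Rrm2, at 1.26 with a smaller SE of 0.26, did not pass the threshold of 0.01 in that comparison (edgeR adjusted p = 0.0178). Of 1290 alternative values for the 70 pairs of gene and comparison, 1146 kept both direction and side of the threshold, 17 came to pass it (all of them Rrm2 or Pcna) and 127 changed sign, all of genes that did not pass the threshold in either setting. Under scaling by library size only the median of all genes was 0.334 for Mtm1 KO against WT, 0.266 for Mtm1 KO + TAM against WT + TAM and 0.312 for the averaged knockout effect, against 0.0232, -0.0139 and 0.0052 with TMM. The cause of the other changes was not tested.

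For Mtm1 KO against WT, 1 of the 10 genes was called at an adjusted p of at most 0.05, with DESeq2, with library size scaling, with no filter and with limma on log2(RPKM + 0.1), and 0 when each library was left out in turn. For the averaged knockout effect, 2 were called at 0.05, with library size scaling and in both limma fits, 1 with DESeq2 and with no filter, and 0 to 1 with a library left out. The other 5 counts stayed at 0 in every alternative. Over all genes, the count called for Mtm1 KO against WT was 531, and 182 to 1885 in the alternatives. The same ranges were 0 to 68 for Mtm1 KO + TAM against Mtm1 KO (0 in edgeR), 2 to 208 for WT + TAM against WT (19), 424 to 2476 for Mtm1 KO + TAM against WT + TAM (979), 0 to 12 for the difference of the tamoxifen effects (0), 2143 to 5180 for the averaged knockout effect (3013) and 51 to 327 for the averaged tamoxifen effect (92). The median within-group SD of the 10 genes was 0.75 on log2(RPKM + 0.1), an alternative chosen after seeing the data, as were the 16 libraries and leaving out libraries for this value.

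Log2 values that changed sign were as follows. For Mtm1 KO against WT, library size scaling gave 0.23 for Mki67, 0.19 for Top2a and 0.081 for Ccna2, limma on log2(RPKM + 1) gave 0.015 for Mki67 and 0.020 for Top2a, and the 16 libraries gave 0.28 for Mki67 and 0.18 for Top2a. For Mtm1 KO + TAM against Mtm1 KO, the 16 libraries gave -0.19 for Mki67, -0.19 for Ccna2 and -0.60 for Birc5, limma gave 0.19 (RPKM + 0.1) and 0.030 (RPKM + 1) for Top2a and 0.16 and 0.038 for Cdk1, and library size scaling gave -0.014 for Ccna2 and -0.020 for Birc5. For WT + TAM against WT, limma on log2(RPKM + 0.1) gave -0.035 for Mcm5. For Mtm1 KO + TAM against WT + TAM, library size scaling, limma on log2(RPKM + 0.1) and limma on log2(RPKM + 1) gave 0.068, 0.44 and 0.046 for Ccnb1 and 0.014, 0.0023 and 0.0030 for Mcm2. The 16 libraries gave -0.45 for Birc5 in the difference of the tamoxifen effects. In the averaged knockout effect Ccna2 was at 0.26 with library size scaling, 0.17 and 0.12 in the limma fits and 0.070 with the 16 libraries. In the averaged tamoxifen effect Ccnb1 was at -0.18 and -0.016 in the limma fits.

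With each library left out in turn, values that changed sign ranged as follows. For Mtm1 KO against WT they ran from -1.12 to 0.33 for Mki67, -1.05 to 0.26 for Top2a, -1.11 to 0.12 for Ccna2, -0.74 to 0.55 for Cdk1 and -0.68 to 0.73 for Birc5. For Mtm1 KO + TAM against Mtm1 KO they ran from -0.37 to 1.07 for Mki67, -0.45 to 0.87 for Top2a, -0.11 to 1.31 for Ccnb1, -0.32 to 0.92 for Ccna2, -0.43 to 0.86 for Cdk1, -0.0016 to 0.25 for Mcm2, -0.62 to 0.26 for Mcm5 and -0.37 to 1.04 for Birc5. For WT + TAM against WT they ran from -0.88 to 0.13 for Ccnb1, -0.044 to 0.16 for Mcm2, -0.24 to 0.27 for Mcm5, -0.36 to 0.25 for Rrm2 and -0.53 to 0.25 for Birc5. For Mtm1 KO + TAM against WT + TAM they ran from -0.011 to 0.70 for Mki67, -0.074 to 0.85 for Top2a, -0.65 to 0.37 for Ccnb1 and -0.067 to 0.58 for Ccna2. For the difference of the tamoxifen effects they ran from -0.016 to 1.44 for Mki67, -0.21 to 0.066 for Pcna, -0.050 to 0.20 for Mcm2, -0.69 to 0.20 for Mcm5 and -0.25 to 1.17 for Birc5. For the averaged knockout effect they ran from -0.43 to 0.30 for Mki67, -0.40 to 0.34 for Top2a, -0.49 to 0.15 for Ccna2, -0.091 to 0.56 for Cdk1 and -0.12 to 0.59 for Birc5. For the averaged tamoxifen effect they ran from -0.36 to 0.36 for Mki67, -0.54 to 0.19 for Top2a, -0.28 to 0.52 for Ccnb1, -0.37 to 0.27 for Ccna2, -0.45 to 0.20 for Cdk1, -0.27 to 0.17 for Mcm5 and -0.24 to 0.47 for Birc5.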
